A study of Arabidopsis thaliana with 24 samples.

Results

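The genes described here are 129 Arabidopsis thaliana genes whose RNA was lower in roots grown throughout on isoxaben with 60 mM KNO3 and stayed close to mock in the other 3 settings of the study. They were chosen from 32833 listed genes by the deposited normalised counts. The mean of the 3 isoxaben libraries plus 1 was divided by the mean of the 3 mock libraries plus 1 and put on a log2 scale. A member had a ratio of at most -1 in long-term roots at 60 mM, an absolute ratio under 0.3 in the other 3 settings, and a mean of at least 50 normalised counts in the long-term 60 mM mock roots. These 4 ratios fixed the choice, so they are given below as a description and without a test. Of 17087 genes at the level minimum, 509 had a ratio of at most -1, and the 129 members were 25.3% of those 509. The limits on long-term 6 mM roots, on shift roots at 6 mM and on shift roots at 60 mM, each taken alone, were met by 271, 391 and 222 of the 509.

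The study had 24 root libraries of Col-0, a wild-type accession, in 8 groups of 3. The Murashige and Skoog agar medium held KNO3 at 6 or 60 mM. The cellulose synthesis inhibitor isoxaben was given at 2.5 nM, and mock treatment took its place in the controls. Long-term seedlings stood on the treatment medium throughout. Shift seedlings were moved on a mesh at day 5 to medium with the same KNO3 and either isoxaben or mock. All roots were taken at day 6 after stratification. The 8 groups were thus long-term 60 mM isoxaben and mock, long-term 6 mM isoxaben and mock, shift 60 mM isoxaben and mock, and shift 6 mM isoxaben and mock. By its title, the study concerns effects of isoxaben that depend on nutrients and on tissue. Medium with more KNO3 holds more nitrate, more potassium and more salt at the same time.

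Members with a known role include genes of the endodermis, the xylem and nitrate reduction. The endodermis is the cell layer around the root vasculature. It first seals its walls with the lignin-based Casparian strip and later coats them with suberin, a polyester of fatty acids, fatty alcohols, glycerol and phenolics. Laccases oxidise lignin monomers in the thick walls of xylem vessels. Nitrate taken up by the root is reduced by nitrate reductase to nitrite and by nitrite reductase to ammonium.

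Promoter sequences are shown for 5 members of the gene lists used here, because MYB factors control both suberin and secondary wall genes and bind short elements rich in A and C. The secondary wall MYB element was searched on both strands as ACCAAAC, as ACCAAAT, as ACCAACC, as ACCAACT, as ACCTAAC, as ACCTAAT, as ACCTACC or as ACCTACT. Of 13 members in the lists for secondary wall, xylem regulators, lignin, and Casparian strip and suberin, 4 had a match within the 250 bases before the gene start and 9 had none. The 4 with a match are shown, followed by CYP86A1, which had the highest mean in long-term 60 mM mock roots among the 9. Each run lists the 250 bases before the annotated gene start, 5′ to 3′ along the strand of the gene, from the RefSeq assembly TAIR10.1. Capitals mark the matched element, and in FLA11 also the tracheary element-regulating element CTTCAAAGCAA. LAC2 lies on the minus strand with the window chr2:12527804-12528053, ABCG2 on the minus strand with chr2:15675921-15676170, FLA11 on the minus strand with chr5:753658-753907, LAC17 on the plus strand with chr5:24167746-24167995, and CYP86A1 on the minus strand with chr5:23768112-23768361.
LAC2: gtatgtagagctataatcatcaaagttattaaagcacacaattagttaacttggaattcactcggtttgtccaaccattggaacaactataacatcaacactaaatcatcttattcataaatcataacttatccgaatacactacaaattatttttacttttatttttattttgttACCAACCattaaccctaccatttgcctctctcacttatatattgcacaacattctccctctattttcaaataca
ABCG2: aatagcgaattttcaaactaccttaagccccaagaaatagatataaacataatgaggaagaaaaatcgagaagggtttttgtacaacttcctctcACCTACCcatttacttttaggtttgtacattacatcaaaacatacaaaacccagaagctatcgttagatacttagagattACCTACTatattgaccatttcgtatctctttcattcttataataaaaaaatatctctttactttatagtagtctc
FLA11: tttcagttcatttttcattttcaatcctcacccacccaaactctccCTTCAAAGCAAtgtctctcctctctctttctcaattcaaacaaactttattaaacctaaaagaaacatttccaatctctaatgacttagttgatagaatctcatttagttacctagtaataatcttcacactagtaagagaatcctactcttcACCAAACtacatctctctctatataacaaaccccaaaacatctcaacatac
LAC17: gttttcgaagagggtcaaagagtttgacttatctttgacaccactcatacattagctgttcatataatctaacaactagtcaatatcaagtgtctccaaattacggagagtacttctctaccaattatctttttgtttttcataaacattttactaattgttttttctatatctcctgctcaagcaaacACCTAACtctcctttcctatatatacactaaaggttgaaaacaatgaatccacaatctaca
CYP86A1: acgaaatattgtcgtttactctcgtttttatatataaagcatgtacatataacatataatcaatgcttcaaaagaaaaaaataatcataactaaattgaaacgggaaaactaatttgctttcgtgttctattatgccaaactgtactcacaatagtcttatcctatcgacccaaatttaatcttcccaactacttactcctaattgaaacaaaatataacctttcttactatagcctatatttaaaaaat
A match is a run of letters and not evidence of binding.

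In windows from 250 bases before to 50 bases after the start, 59 of 128 member promoters held a secondary wall MYB element, or 46.1%, against 34.2% of the 20488 promoters searched. Among the xylem wall members 4 of 7 held it, and among the suberin members 8 of 17. The auxin response element TGTCTC or TGTCGG was in 35 member promoters, or 27.3%, against 18.7% of all. The W-box TTGACC or TTGACT was in 37.5% of member promoters and 33.0% of all, and the G-box CACGTG in 7.81% and 8.52%. The TATA box TATAAA was in 53.1% of member promoters and 51.7% of all, and the mitosis-specific activator core AACGG in 25% and 26%. The tracheary element-regulating element was in 1 member promoter, or 0.781%, against 0.493% of all. By role, the W-box was in 8 of 17 suberin and 1 of 7 xylem wall members, and the TATA box in 12 and 2 of them. The G-box was in 0 suberin, 0 xylem wall and 4 of 10 photosynthesis members. These shares are descriptions. No difference between them was tested.

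Library totals ranged from 18902538 to 20519913 counts, and 118 of the 129 members had a mock mean of at least 100 normalised counts in long-term 60 mM roots. Replicates were less alike than counting error alone allows. For 24 pairs the chi-square statistic over its degrees of freedom lay between 2.64 and 21.7, and the highest value belonged to long-term 60 mM isoxaben replicates 1 and 2. All 18 markers of root cell types were counted in all 24 libraries. Of 20 photosynthesis genes used as a check for shoot tissue, 3 were at 0 in at least 1 library, and their summed level lay between 4861 and 17789 normalised counts. The labels do not say whether the 3 libraries of a group came from separate cultures, so p-values below measure the spread between libraries, which may be technical. In whole roots, fewer cells of a type and less RNA per cell cannot be told apart.

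**Figure D1:**
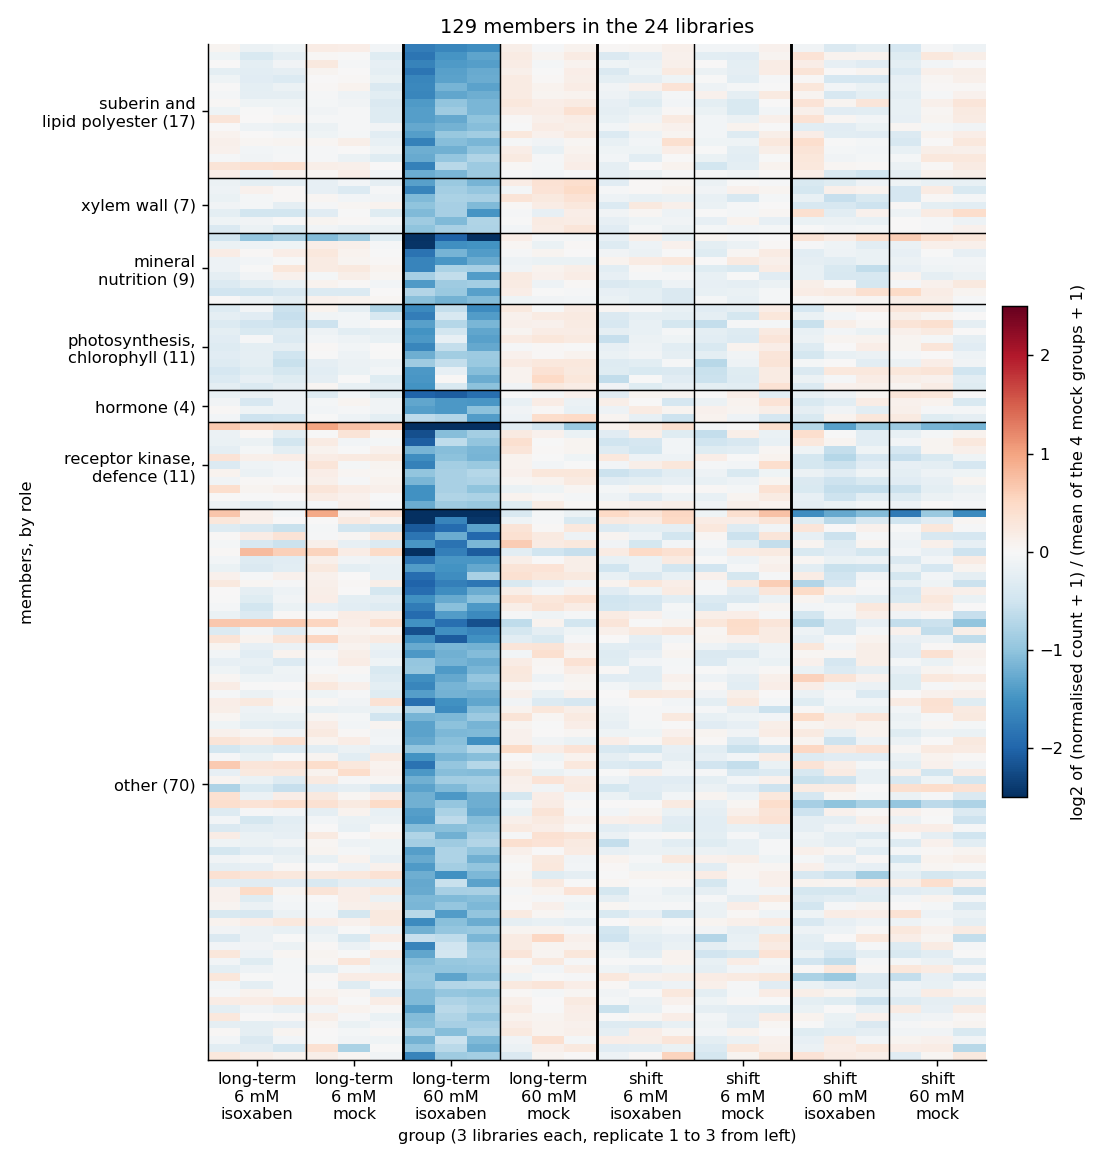
Each row is 1 of the 129 members, sorted by role, and each column 1 of the 24 libraries. Colour gives the log2 ratio of the normalised count plus 1 to the mean of the 4 mock groups plus 1. The 3 long-term 60 mM isoxaben columns are blue over nearly all rows, and the photosynthesis rows are paler in the second of them.

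The heat map of all members shows the pattern that the rule selected, and how the members vary around it. The ratio in long-term 60 mM roots had a median of -1.19 and ranged from -3.45 to -1.0, against a median of -0.0021 over all 17087 genes at the level minimum. It was at most -1.5 in 26 members and above -1.1 in 41, so many members lay close to the limit. In the other settings the ratios leaned slightly below 0. The median was -0.08 in long-term 6 mM roots, with 97 of 129 members below 0. It was -0.07 in shift 60 mM roots with 85 below 0, and -0.04 in shift 6 mM roots with 79 below 0. edgeR's quasi-likelihood test across all 20546 genes tested, with Benjamini-Hochberg adjustment and a call at an adjusted p under 0.05, called all 129 members lower in long-term 60 mM isoxaben roots, where it called 31.9% of all genes in either direction. Nothing is read from that count, since the rule used the same contrast. For isoxaben it called 0 members in long-term 6 mM roots (5.69% of all genes) and 0 in shift 6 mM roots (0.949% of all genes). At an unadjusted p under 0.05 there were 9 and 3 members, all lower. The share of all genes at that unadjusted p was not counted, so nothing is read from these counts. In shift 60 mM roots the adjusted test called 4 members lower, against 5.59% of all genes called lower. The rule used these contrasts as well.

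A group of 17 members was assigned to suberin and related lipid polyesters, including cutin, and 7 of them are in the gene list for Casparian strip and suberin. All 17 were sorted by their annotated products and textbook roles after the members were known. Their median ratio in long-term 60 mM roots was -1.38, from -1.71 to -1.06, while in shift 60 mM roots their ratios lay between -0.25 and 0.15. Their summed level was between 9982 and 13113 normalised counts in the 3 long-term 60 mM isoxaben libraries, against 30849 to 33994 in the long-term 60 mM mock libraries. In the other 6 groups the sum lay between 25571 and 35323. The 3 isoxaben libraries at long-term 60 mM stood below all other 21 libraries. The rule asks for a large fall there in each member, so nothing is read from this separation.

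CYP86A1 (chr5:23765791-23768111, minus strand) encodes the fatty acid hydroxylase that makes the omega-hydroxy acids of root suberin. It had 1482, 1899 and 2123 normalised counts in long-term 60 mM isoxaben roots, against 6076, 5547 and 6068 in long-term 60 mM mock roots. The means were 1835 ± 325 and 5897 ± 303 (SD, n = 3 each), a log2 ratio of -1.68. Every isoxaben library had fewer counts than every mock library, as for all 129 members, where the rule asks for a large fall (20.5% of all genes lay apart in this way). Nothing is read from this separation, here or in the members described below. After the shift to isoxaben at the same KNO3 the gene was at 6626, 5581 and 5595 in shift isoxaben roots, against 4241, 6306 and 5851 in shift mock roots. These ranges overlapped.

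GPAT5, an acyltransferase that joins suberin fatty acids to glycerol, had 287, 307 and 368 in long-term 60 mM isoxaben roots, against 762, 812 and 843 in mock roots (ratio -1.33). GPAT6, a relative best known for cutin of flowers, had 387, 536 and 574 with isoxaben, against 1508, 1365 and 1553 in mock (ratio -1.56). Both genes had isoxaben libraries well below their mock libraries, with no overlap, as in all members. LACS2, a long-chain acyl-CoA synthetase best known from cutin, had 468, 578 and 617 in isoxaben roots, against 1689, 1491 and 1604 in mock roots (ratio -1.52).

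FAR4 and FAR5 encode fatty acyl reductases that make the primary alcohols of suberin. They are neighbours on the plus strand of chromosome 3, at chr3:16123426-16128030 and chr3:16137576-16142270. FAR4 had 368, 447 and 523 in long-term 60 mM isoxaben roots, against 1031, 856 and 963 in mock roots (ratio -1.09). FAR5 had 702, 716 and 827 with isoxaben, against 1844, 1453 and 1740.5 in mock (ratio -1.16). The groups did not overlap for either gene, as in all members. FAR4 overlaps a gene on the opposite strand, and the strand setting of the counting is not stated. FACT, which joins caffeic acid to fatty alcohols of root waxes, had 571, 1145 and 984 with isoxaben, against 1885, 1775 and 2054 in mock (ratio -1.08). Its first isoxaben library was the lowest of the 3, and none reached the mock range, as in all members.

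The half-size ABC transporters ABCG2 and ABCG20 are required for an intact suberin barrier. ABCG2, shown above with 2 matches to the MYB element, had 538, 834 and 785 in long-term 60 mM isoxaben roots, against 1701, 1629.8 and 1804 in mock roots (ratio -1.25). ABCG20 had 388, 521 and 548 with isoxaben, against 1213, 1083 and 1177 in mock (ratio -1.25). ABCG23, of the same family, had 254, 359 and 299 with isoxaben, against 756, 751 and 862 in mock (ratio -1.38). All 3 transporter genes were lower in each isoxaben library than in each mock library, as were all members.

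MYB93, a transcription factor of the endodermis, had 379, 512 and 456 in long-term 60 mM isoxaben roots, against 1225, 1132 and 1175 in mock roots (ratio -1.39). The Casparian strip protein-like gene AT4G20390 (CASPL1B2) had 739.5, 788 and 829 with isoxaben, against 2706, 2392 and 2609 in mock (ratio -1.71), and it overlaps a gene on the same strand, so its counts are uncertain to that extent. Its relative AT5G44550 (CASPL1B1) had 1067, 1455 and 1279 with isoxaben, against 3712, 3434 and 3664 in mock (ratio -1.51). The regulator and both membrane proteins showed no overlap between isoxaben and mock, as in all members. The GDSL lipase family genes AT2G23540, AT3G53100 and AT4G26790 had ratios of -1.56, -1.28 and -1.06, and AT5G12420, annotated as a WSD1-like O-acyltransferase, had -1.5. Of the 17 genes, all had their lowest level in isoxaben replicate 1. The median over them was -1.67 in replicate 1, -1.29 in replicate 2 and -1.35 in replicate 3, each set against the mock mean.

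**Figure D2:**
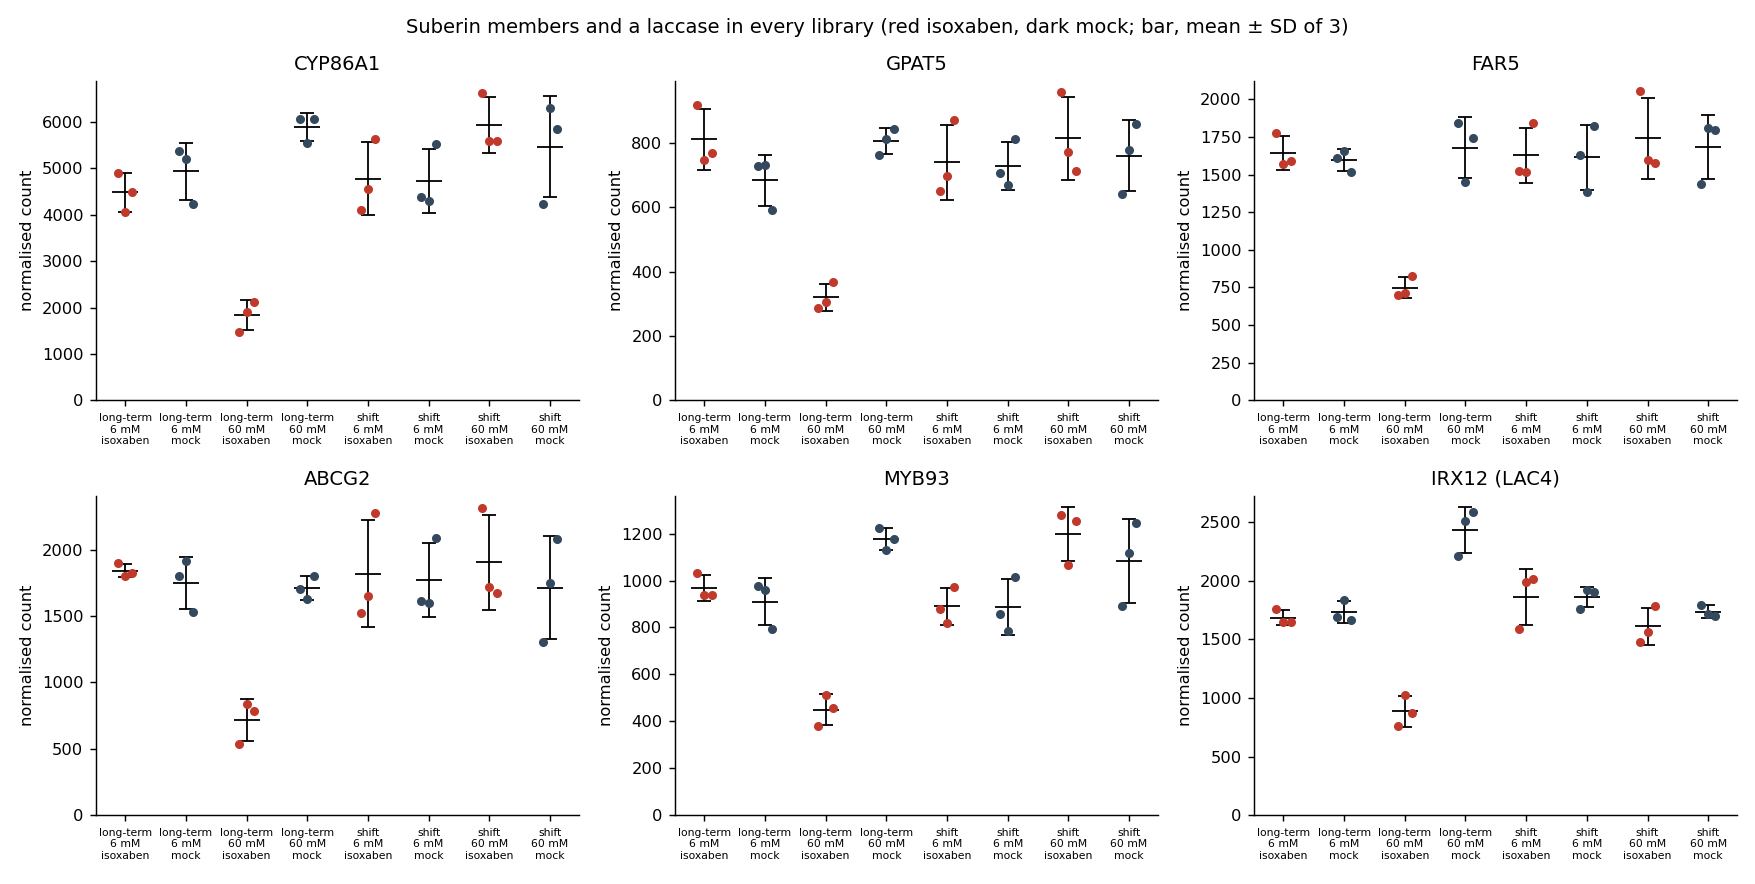
The 6 panels give the normalised counts (vertical axis, from 0) of 5 suberin members and the laccase IRX12 in each of the 8 groups. Points are libraries, red for isoxaben and dark for mock, and bars are the mean ± SD of 3. In each panel the 3 long-term 60 mM isoxaben points lie below all others, and for CYP86A1 they are at 1482, 1899 and 2123.

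The plot of 6 members by library puts those values beside the other groups. At long-term 6 mM, GPAT5 was at 919, 747 and 769 in isoxaben roots, against 729, 731 and 593 in mock roots. MYB93 in shift 60 mM roots was at 1278, 1067 and 1253 with isoxaben, against 893, 1116 and 1246 in mock. The SD of CYP86A1 was 1085 normalised counts in shift 60 mM mock roots and 303 in long-term 60 mM mock roots.

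A list of 26 Casparian strip and suberin genes holds 7 members. In long-term 60 mM isoxaben roots 25 of the 26 were called lower and 0 higher, with a median log2 fold change of -1.14 (all genes 0.01, with 15.8% of them called lower). The 7 list genes that are members, CYP86A1, GPAT5, FAR4, FAR5, ABCG2, ABCG20 and MYB93, are lower there by choice. In shift 60 mM roots 9 of the 26 were called lower and 0 higher, with a median of -0.16, where 5.59% of all genes were called lower. The 9 were the Casparian strip genes CASP1 to CASP5, ESB1, SGN1 and UCC1 and the suberin gene ASFT. CASP1, which scaffolds the strip, had ratios of -1.13 in long-term 60 mM roots and -1.04 in shift 60 mM roots. ESB1, a dirigent protein of the strip, had -1.15 and -0.89. Among suberin genes, ASFT, a feruloyl transferase, had -1.03 and -0.56, and the hydroxylase CYP86B1 had -1.55 and -0.38. The transporter gene ABCG6 had -1.44 in long-term 60 mM roots and is no member because its ratio in long-term 6 mM roots was 0.36. MYB36, an endodermal regulator of strip genes, was at 386 ± 39.3 in long-term 60 mM isoxaben roots and 493 ± 11.0 in mock roots (SD, n = 3 each).

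**Figure D3:**
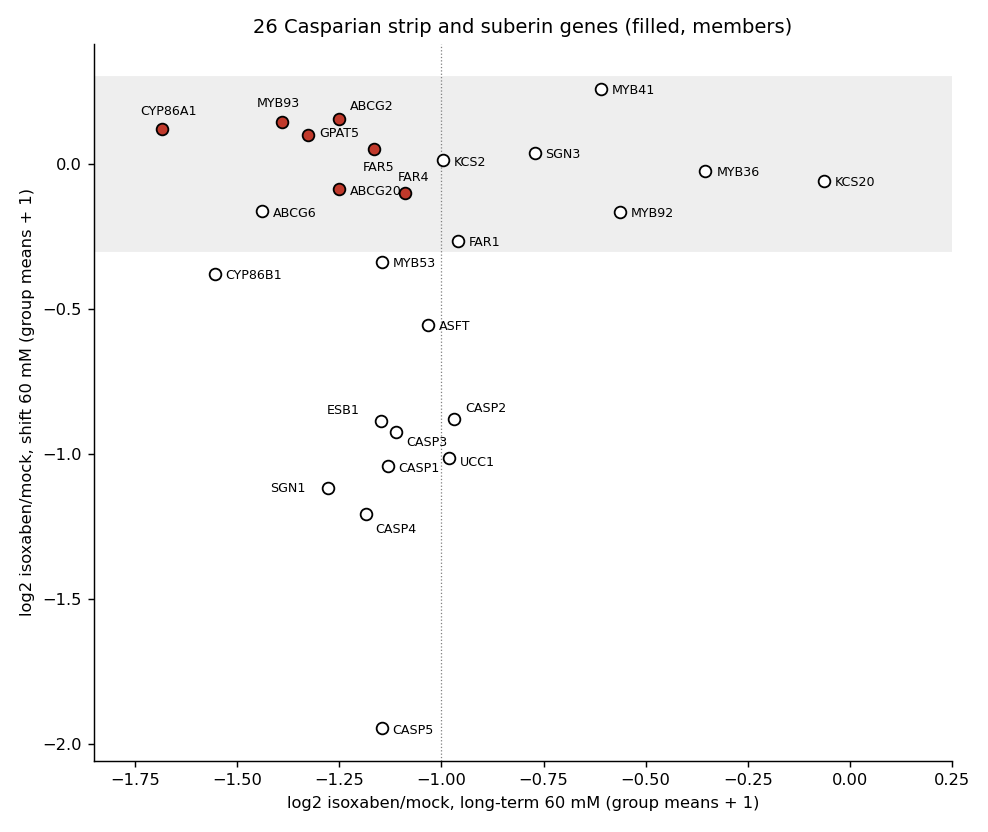
Each point is 1 of 26 Casparian strip and suberin genes. The horizontal axis gives the log2 isoxaben to mock ratio in long-term 60 mM roots and the vertical axis that in shift 60 mM roots. Filled points are members, the grey band marks ratios within 0.3 of 0, and the dotted line marks -1. The CASP genes, ESB1, SGN1 and UCC1 lie near -1 or below on the vertical axis, and the suberin members lie in the band because the rule put them there.

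In the scatter of the list the CASP genes, ESB1, SGN1 and UCC1 lie near -1 in both exposures at 60 mM, except CASP5 at -1.95 in shift roots. They lie away from the suberin members, for which the band around 0 is a condition of membership. Not all strip-related genes lie with them. MYB36 had a mean of 368 normalised counts in shift 60 mM isoxaben roots, against 374 in shift 60 mM mock roots. KCS20, an elongase gene of the list, had a ratio of -0.06 in long-term 60 mM roots and was the list gene not called. Its relative KCS2 had -0.996, just outside the limit.

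The xylem wall gave 7 members with a median ratio of -1.14. The laccase gene IRX12 (LAC4) had 759.9, 1025 and 872 in long-term 60 mM isoxaben roots, against 2208, 2506 and 2585 in mock roots (ratio -1.46). LAC17, which acts with it in lignifying stems, had 699.8, 802 and 824 with isoxaben, against 1354, 1609 and 1741 in mock (ratio -1.01). LAC2 had 52.0, 91.8 and 84.0 with isoxaben, against 161, 209 and 232 in mock (ratio -1.39). Isoxaben and mock libraries did not overlap for any of the 3 laccases, as in all members. LAC17 overlaps a gene on the opposite strand.

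FLA11, a fasciclin-like arabinogalactan protein of secondary walls, had 403, 456 and 381 in long-term 60 mM isoxaben roots, against 830.2, 926 and 980.4 in mock roots (ratio -1.14). CTL2, a chitinase-like protein of secondary wall formation, had 359.6, 312 and 395 with isoxaben, against 658, 769 and 753 in mock (ratio -1.03). MYB54, a secondary wall transcription factor, had 86.6, 105 and 66.3 with isoxaben, against 182, 161 and 209 in mock (ratio -1.09). The groups stood apart for all 3, as in all members. TBL30, of a family that acetylates wall polysaccharides, had a ratio of -1.2. FLA11 and TBL30 overlap a gene on the opposite strand.

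The wider lists set these members beside related genes. In long-term 60 mM isoxaben roots 15.8% of all genes were called lower and 31.9% in either direction. Of 24 secondary wall genes, 21 were called lower and 1 higher in long-term 60 mM isoxaben roots, with a median of -0.81, and 2 were members. The secondary wall cellulose synthases CESA4, CESA7 and CESA8 had ratios of -0.77, -0.89 and -0.96 and so missed the limit of -1. Of 28 xylem regulators tested, 18 were called lower and 2 higher, with a median of -0.59, and MYB54 was the member. Of 28 lignin genes, 9 were called lower and 12 higher, with a median of 0.09, and the members were the 3 laccases.

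Markers of several root cell types also differed between these libraries. Their summed level is given for the long-term 60 mM roots, isoxaben libraries against mock libraries. The 3 endodermis markers CASP1, SCR and MYB36 summed to 3218 to 4592 normalised counts in isoxaben roots, against 6184 to 7324 in mock roots. The 3 xylem markers VND7, XCP1 and CESA8 summed to 1543 to 1729 in isoxaben roots, against 2690.4 to 2997 in mock roots. The endodermis and xylem sums were thus lower in every isoxaben library. The 2 pericycle and stele markers PHO1 and SKOR summed to 5458 to 6971 in isoxaben roots, against 7934 to 8228 in mock roots, and the 3 phloem markers APL, SUC2 and SEOR1 to 1083 to 1303, against 1399.5 to 1616. The 3 root hair markers COBL9, EXPA7 and LRX1 went the other way, with 9939.9 to 16410.5 in isoxaben roots, against 4395 to 5475 in mock roots. The 2 root cap markers SMB and BRN1 summed to 596 to 671 in isoxaben roots, against 453 to 484 in mock roots, and the sums of the 2 meristem markers PLT1 and WOX5 overlapped, with 427 to 475 against 429.7 to 471. Single markers did not all follow their sum, and high markers weigh most in it. SUC2 had a mean of 350 with isoxaben, against 331 in mock, while SEOR1 had 541 against 762. In the endodermis CASP1 had 2238 against 4903 and SCR 1182 against 1374. PHO1 had 6419 against 7886 and SKOR 12.3 against 159. Among all genes, 15.8% were called lower in long-term 60 mM isoxaben roots and 31.9% in either direction. Of the wider lists, 17 of 23 root hair genes were called higher there and 0 lower. In the same roots 6 of 8 xylem cell death genes were called lower and 0 higher, and 12 of 30 phloem genes were called lower and 3 higher. Of 25 cell division genes 12 were called lower and 0 higher. Some marker sums also lay apart in settings where the members are flat by choice. In shift 60 mM roots the endodermis sum was 2727 to 3505 with isoxaben, against 4605 to 5591 in mock. In long-term 6 mM roots it was higher with isoxaben, at 5728 to 6306 against 4679 to 5156. There the root hair sum was 8663 to 8889 against 4812 to 5728, and the xylem sum 2250 to 2331 against 2561 to 2855. The part of these markers in the falls of the members was not tested.

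Mineral nutrition gave 9 members, and these included the members with the highest levels. NIA1 (chr1:29235721-29239484, minus strand), one of the nitrate reductase genes, had 4848, 9238 and 9446 in long-term 60 mM isoxaben roots, against 27597, 23845 and 26995 in mock roots (ratio -1.74). NIR1 (AT2G15620), which encodes nitrite reductase, had 5247, 7488 and 7699 with isoxaben, against 15999.8, 12829 and 14165 in mock (ratio -1.07). The groups did not overlap, as in all members, and for both genes the first isoxaben library was lowest. At long-term 6 mM, NIA1 was at 24118, 24422 and 24650.2 in isoxaben roots, against 29912, 29135 and 25930.1 in mock roots. Of 25 nitrate response genes tested, 17 were called lower and 2 higher in long-term 60 mM isoxaben roots, with a median of -0.57, and NIA1 and NIR1 were the members. Of all genes 15.8% were called lower there.

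AT3G25190 (chr3:9174398-9175866, plus strand), annotated as a vacuolar iron transporter family gene, had 481, 660.3 and 404 in long-term 60 mM isoxaben roots, against 2991, 2621 and 2574 in mock roots. Its ratio of -2.4 was the third lowest of all members. In long-term 6 mM roots it had 1886, 1364 and 1529.9 with isoxaben, against 1267, 1465 and 2163 in mock. The ferritin gene FER2 and bHLH11, a transcription factor of iron homeostasis, had ratios of -1.08 and -1.03. FER2 overlaps a same-strand gene and bHLH11 an opposite-strand gene. In sulfur supply, APS4, an ATP sulfurylase, had 2545, 4115 and 3519.9 in long-term 60 mM isoxaben roots, against 9018, 9602 and 9326 in mock roots (ratio -1.46), and the sulfate transporter gene SULTR3;5 had a ratio of -1.29. PHO1;H1, of the phosphate exporter family, had -1.02, and the major facilitator gene AT1G68570 (NPF3.1) had -1.1.

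Hormone genes gave 4 members, among them GA3OX2 and GA3OX1, whose enzymes carry out the last step to bioactive gibberellins. GA3OX2 (chr1:30200466-30202349, minus strand) had 348, 335 and 381 in long-term 60 mM isoxaben roots, against 1384, 1364 and 1501 in mock roots (ratio -1.99). GA3OX1 had 455, 435 and 578 with isoxaben, against 1117, 1210.2 and 1036 in mock (ratio -1.19). GA3OX2 was nearly constant among the 3 isoxaben libraries. In shift 60 mM roots it was at 1239, 1287 and 1441 with isoxaben, against 1739.7, 1706 and 1411 in mock, and its ratio of -0.29 came close to the limit of 0.3. ARR11, a response regulator of cytokinin signalling, had a ratio of -1.36, and AT3G12955, annotated as SAUR-like, had -1.19.

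Receptor kinases and defence-related genes gave 11 members. The leucine-rich repeat kinase gene AT5G59680 (chr5:24046512-24051112, plus strand) had 7.13, 12.0 and 16.6 in long-term 60 mM isoxaben roots, against 125, 108 and 78.6 in mock roots. Its ratio of -3.02 was the second lowest of all members. The kinases MEE39, AT2G28970 and AT1G51890 had ratios of -1.28, -1.23 and -1.0. Of the 50-base windows of MEE39, 21.3% have a copy at another place, which makes its level uncertain. The other members of the group were the lectin genes AT3G45410 and AT3G51710 (-1.01 and -1.12), the resistance protein genes AT2G17050 and AT3G46730 (-1.33 and -1.26), MLO10 and MLO12 (-1.0 and -1.07), and PUB22, a ubiquitin ligase of immune signalling (-1.02). All 11 were lowest in isoxaben replicate 1, where their median was -1.53, against -0.93 in replicate 2 and -0.94 in replicate 3.

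Photosynthesis and chlorophyll genes gave 11 members, and their values differed widely between the isoxaben replicates. PSAF, a subunit of photosystem I, had 461, 1309 and 539 in long-term 60 mM isoxaben roots, against 1364, 1795 and 1545 in mock roots (ratio -1.03). CRD1, of chlorophyll synthesis, had 308, 771 and 388 with isoxaben, against 1099, 1169 and 1186 in mock (ratio -1.23). In both genes the second isoxaben library was the highest of the 3. All 11 members were highest in isoxaben replicate 2, where their median was -0.60 and 0 of 11 were at most -1, against -1.64 in replicate 1 and -1.31 in replicate 3. The summed level of the 20 shoot-check genes, of which LHCB4.1 is a member, moved with them. It was 4861, 14043 and 5849 normalised counts in long-term 60 mM isoxaben replicates 1 to 3, against 11010, 16072 and 13643 in the mock replicates. In long-term 60 mM isoxaben roots 7 of the 20 list genes were called lower and 0 higher, against 15.8% of all genes called lower. The part of shoot tissue in these values was not tested. Without isoxaben replicate 2, 180 genes met the rule, 124 of them members, and these held all 11 photosynthesis members and all 17 suberin members. Without isoxaben replicate 1, 96 genes met the rule, 89 of them members, among them 2 of the 11 photosynthesis and 14 of the 17 suberin members.

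The remaining photosynthesis members had ratios between -1.31 and -1.02. They were PSB27 and PSBP-1 of photosystem II, PSAD-1 of photosystem I, the antenna gene LHCB4.1, CP12-1 of the Calvin cycle, the geranylgeranyl reductase gene AT1G74470, LIL3:2, the chlorophyll b reductase gene NYC1, and AT3G63540, annotated as a thylakoid lumenal protein. PSBP-1 and AT3G63540 overlap a same-strand gene.

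**Figure D4:**
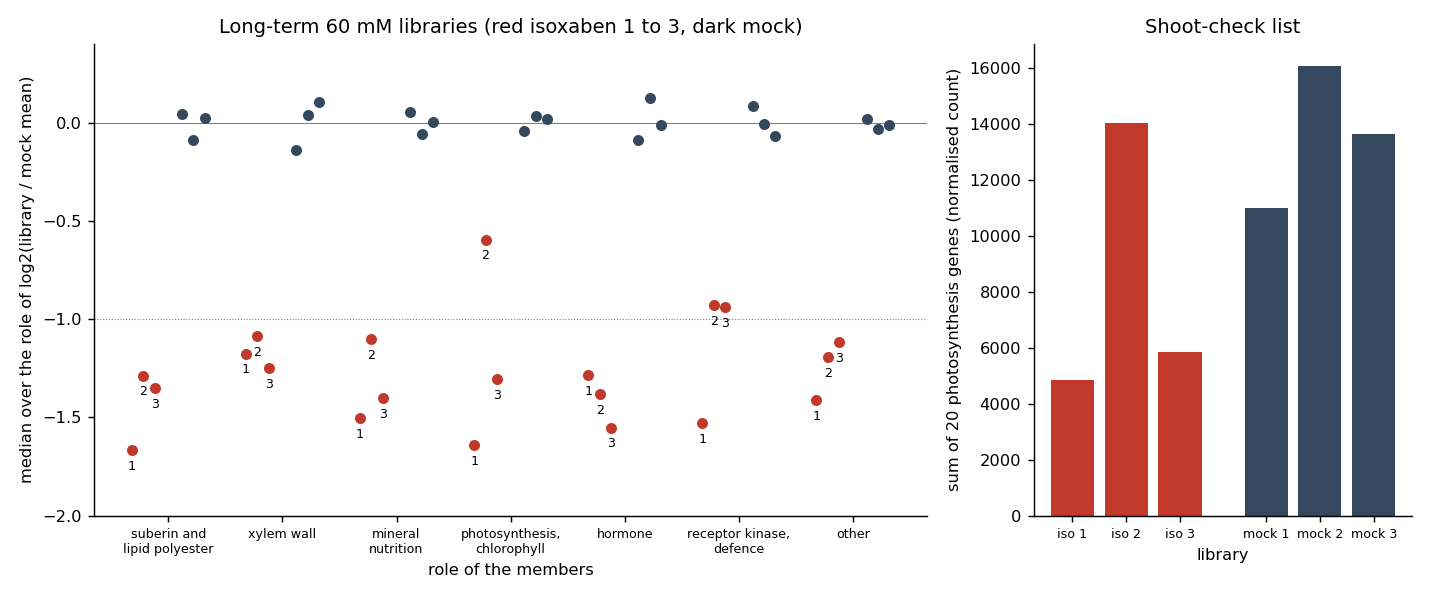
The left panel gives, for each role, the median over its members of the log2 ratio of a long-term 60 mM library to the mock mean, with isoxaben replicates 1 to 3 numbered in red and mock replicates in dark. The right panel gives the summed normalised counts of 20 photosynthesis genes in the same 6 libraries. Isoxaben replicate 2 stands at -0.60 for photosynthesis members and reaches 14043 in the sum.

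As the plot of role medians shows, the isoxaben replicates differed in the depth of the fall. The rule used the mean of these libraries. Set against the mock mean, all 129 members were below 0 in each of the 3 isoxaben libraries. The median over members was -1.48 in replicate 1, -1.12 in replicate 2 and -1.17 in replicate 3, and 120, 82 and 99 of the 129 were at most -1. Replicate 1 was the lowest of the 3 for 97 members.

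The other 70 members held the lowest ratio of all. AT4G04990 (chr4:2554997-2557258, plus strand), annotated as a DUF761 protein, had 6.11, 19.7 and 17.6 in long-term 60 mM isoxaben roots, against 147, 186 and 172 in mock roots (ratio -3.45). AT5G48430, an aspartyl protease family gene, had 198, 524 and 302 with isoxaben, against 1514, 1608 and 1263 in mock (ratio -2.1). The transcription factor gene WRKY43 had 19.4, 21.9 and 33.2 with isoxaben, against 108, 88.0 and 103 in mock (ratio -1.96). In each of these genes the isoxaben and mock libraries were far apart, and no member had overlapping libraries there. AT3G49160, AT2G43670 and AT3G45160, the next in order, had ratios of -1.82, -1.82 and -1.76. AT3G49160 is annotated as a pyruvate kinase family gene and overlaps a gene on the opposite strand.

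The 5 members with the highest mean in long-term 60 mM mock roots were NIA1, NIR1, PELPK1, APS4 and XTH31. PELPK1, a proline-rich wall protein, had 3499, 4144 and 4915 in long-term 60 mM isoxaben roots, against 13029, 12132 and 13013 in mock roots (ratio -1.6). XTH31, of the xyloglucan endotransglucosylase family, had 3313, 3915 and 4464 with isoxaben, against 8965, 7926 and 9770.4 in mock (ratio -1.19). Divided by exon length, the mock means were 8287 normalised counts per kilobase for NIA1, 7716 for PELPK1, 6535 for NIR1, 6379.8 for XTH31 and 4892 for APS4. At the other end, 11 members had a mock mean under 100 normalised counts. Further families with 3 or more members were cytochromes P450, with CYP86A1, CYP702A6 (-1.21), CYP71B7 (-1.05) and AT5G08250 (-1.23), and RING or U-box proteins, with AT4G40070 (-1.05), AT5G55970 (-1.04) and PUB22.

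The genes nearest to each limit were as follows. Just inside the fall limit were MLO10 at -1.0, AT1G51890 at -1.0 and AT1G24430 at -1.01, and just outside were NAC075 at -0.999, CHLM at -0.996 and KCS2 at -0.996. At the level limit, AT1G68200 (63.5), AT2G43445 (65.7) and PSB27 (66.4 normalised counts) were inside, and BGLU33 (47.8), NAC101 (47.2) and AT4G13680 (38.9) were outside. At the limit on the other ratios, MEE39, AT5G03995 and GA3OX2 had an absolute value of 0.29, and AT4G22790, AT1G49000 and AT1G52200, each at 0.30, fell outside. With the other limits met, 53 genes had a ratio above -1 and of at most -0.9. Among the members, 39 had another ratio of at least 0.25 in absolute value, and 31 had all of them under 0.15.

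The rule was then applied without 1 replicate of both long-term 60 mM groups, and the genes so chosen were looked up in the replicate left out. The left-out isoxaben and mock libraries share only a number. Without replicate 1, 107 genes were chosen, and their median ratio in the left-out pair of libraries was -1.41, with 78.5% at most -1, against 4.45% of all genes at the level minimum. Without replicate 2, 174 genes were chosen, with a median of -0.92 and 43.7% at most -1, against 2.67% of all genes. Without replicate 3, 135 genes were chosen, with a median of -1.11 and 63.7% at most -1, against 3.1%. Below 0 in the left-out pair were 107 of 107, 171 of 174 and 134 of 135 of the chosen genes. The fall was thus present in libraries that had not chosen the genes, and shallower in replicate 2. The labels do not say whether a left-out library came from a separate culture, so it may not be independent of those that chose the genes.

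The rule did not use differences between the KNO3 levels, so these could be tested in the shift roots. In shift mock roots at 60 mM against 6 mM, 6 members were called higher, against 3.32% of all genes, and 10 lower, against 4.88% of all genes. Together they were 12.4% of the members, against 8.20% of all genes tested. Members had to meet a level minimum that the genes tested did not, so these shares are not matched for level. The median log2 fold change over members was 0.03, against 0.00 over all genes. The other members did not pass the test, among them all 17 suberin and all 7 xylem wall members.

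AT4G04990 had 55.8, 99.8 and 62.8 normalised counts in shift 60 mM mock roots, against 178, 254 and 319 in shift 6 mM mock roots (log2 fold change -1.78 with SE 0.28, adjusted p 0.00041, edgeR). AT5G59680 had 79.9, 66.5 and 65.7 at 60 mM, against 142, 148 and 202 at 6 mM (log2 fold change -1.21 with SE 0.18, adjusted p 4.17e-05, edgeR). AT5G03995, of unknown function, had 311, 324 and 235 at 60 mM, against 572, 647 and 576 at 6 mM (log2 fold change -1.04 with SE 0.17, adjusted p 0.000498, edgeR). In all 3 genes every 60 mM library was below every 6 mM library. The first and second of them were also the members with the lowest isoxaben ratios in long-term 60 mM roots.

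Among the rises, XTH31 had 11039, 11395 and 10718 in shift 60 mM mock roots, against 7599, 6905 and 5838 in shift 6 mM mock roots (log2 fold change 0.71 with SE 0.11, adjusted p 0.000176, edgeR). AT5G46600, of the aluminium-activated malate transporter family, had 194, 219 and 217 at 60 mM, against 156, 128 and 135 at 6 mM (log2 fold change 0.59 with SE 0.11, adjusted p 0.000507, edgeR). bHLH11 had 557, 451 and 419 at 60 mM, against 349, 353 and 382 at 6 mM (log2 fold change 0.40 with SE 0.12, adjusted p 0.0325, edgeR). These ranges did not overlap either, but the call of bHLH11 was lost in 5 of 12 alternatives, with adjusted p between 0.0176 and 0.235 in edgeR or DESeq2. These were the fits without shift 60 mM mock replicate 1 (0.235), without shift 6 mM mock replicate 1 (0.1), replicate 2 (0.0999) or replicate 3 (0.0592), and with library size alone (0.0692). MES3, AT5G43180 and AT2G18570 also rose, by 0.33, 0.35 and 0.30 on the log2 scale. The remaining falls were those of AT1G53633 (-0.92), AT5G55970 (-0.63), BGAL2 (-0.57), AT3G01260 (-0.47), AT5G01740 (-0.44), AT2G28970 (-0.44) and AT3G45410 (-0.43).

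**Figure D5:**
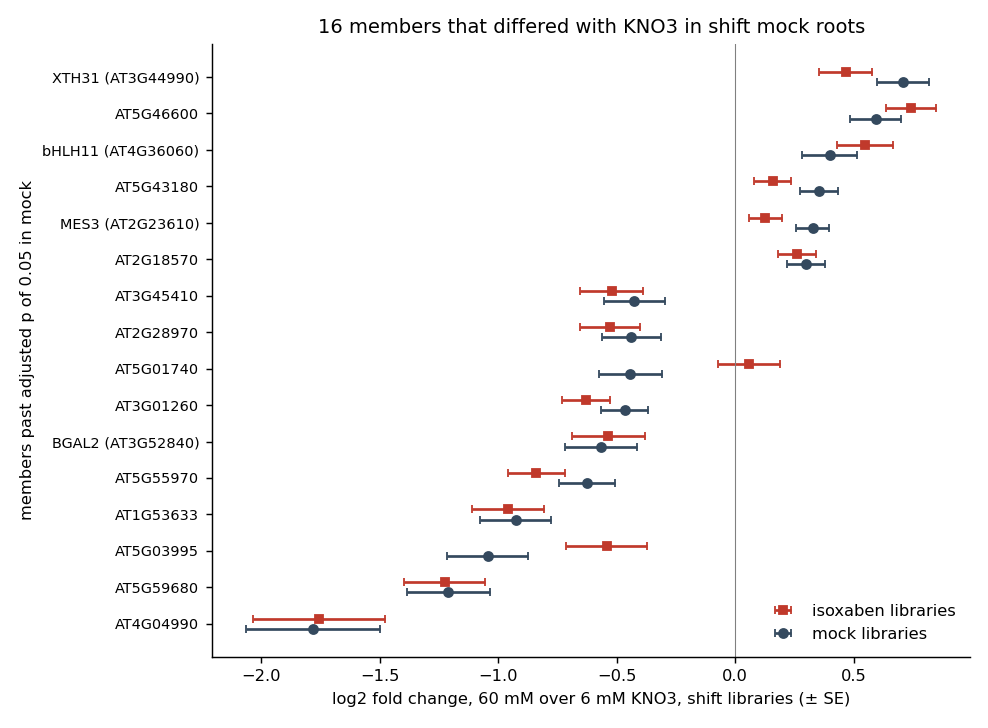
Each row is 1 of the 16 members called for KNO3 in shift mock roots. The horizontal axis gives the log2 fold change of 60 mM over 6 mM KNO3 with its SE, as red squares for isoxaben and dark circles for mock libraries. Values run from -1.78 for AT4G04990 to 0.71 for XTH31 in mock roots.

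In shift isoxaben roots 8 members were called higher at 60 mM than at 6 mM and 20 lower, against 6.93% and 7.11% of all genes. Together they were 21.7% of the members, against 14.0% of all genes, again without matching for level. The plot of the 16 members sets both comparisons side by side. The rule holds each shift isoxaben group within 0.3 of its mock group, so this is not separate evidence. AT4G04990 gave -1.75 (adjusted p 0.000193, edgeR), AT5G59680 -1.23 (adjusted p 9.85e-06) and AT1G53633 -0.96 (adjusted p 4.61e-05). The largest rises were those of AT5G46600 at 0.74 (adjusted p 1.06e-05, edgeR), bHLH11 at 0.55 (adjusted p 0.00192) and NPC4, a phospholipase C, at 0.49 (adjusted p 0.0499). The call of NPC4 was lost in 7 of 12 alternatives, with adjusted p between 0.0213 and 0.202. They included the fits without shift 60 mM isoxaben replicate 1 (0.202) or 2 (0.103) and without shift 6 mM isoxaben replicate 1 (0.165) or 2 (0.175). Of list genes, MYB93 had 1278, 1067 and 1253 in shift 60 mM isoxaben roots, against 878, 817 and 973 in shift 6 mM isoxaben roots (log2 fold change 0.44 with SE 0.12, adjusted p 0.0133, edgeR). It missed the threshold in 3 of 12 alternatives, namely without shift 60 mM isoxaben replicate 1 (adjusted p 0.0575, edgeR) or 3 (0.0534) and without shift 6 mM isoxaben replicate 2 (0.0771), within a range of 0.00235 to 0.0771. FLA11 had 621, 616 and 568 at 60 mM, against 644, 962 and 889 at 6 mM (log2 fold change -0.46 with SE 0.11, adjusted p 0.00445, edgeR). FLA11 missed the threshold with only the 6 libraries compared (adjusted p 0.0538, edgeR), the highest of its 12 alternatives. Unlike MYB93, the suberin members AT4G20390 and AT3G53100, which are outside the lists, were called lower at 60 mM. Their log2 fold changes were -0.28 (adjusted p 0.0285, edgeR) and -0.26 (adjusted p 0.0097, edgeR), and their calls were not followed through the alternatives. The count of 28 members fell to 17 without shift 6 mM isoxaben replicate 2 and to 18 without replicate 3.

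The move on the mesh was tested in mock roots at 6 mM, as shift against long-term. In this test 1 member was called, and it was lower, against 0.642% of all genes called and 0.253% called lower. AT5G59680 had 142, 148 and 202 in shift 6 mM mock roots, against 299, 249 and 236 in long-term 6 mM mock roots (log2 fold change -0.67 with SE 0.15, adjusted p 0.0326, edgeR). The groups did not overlap, but the call was lost in 5 of 12 alternatives, with adjusted p between 0.0118 and 0.241 in edgeR or DESeq2. It was lost without long-term 6 mM mock replicate 1 (0.241), 2 (0.0788) or 3 (0.0603) and without shift 6 mM mock replicate 1 (0.220) or 2 (0.169). The shift 6 mM mock libraries enter this comparison and the KNO3 comparison in mock roots, so the results for AT5G59680 share them.

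Comparisons with the long-term 60 mM mock roots are given without a test, because the rule chose on their level. It set a minimum on that level and also divided the isoxaben mean by it. Genes with high values in these mock libraries were thus favoured. That choice alone can put members above long-term 6 mM mock roots, and shift 60 mM mock roots below. Both comparisons share these libraries, so nothing is read from their medians or counts of members. In long-term mock roots at 60 mM against 6 mM, the median log2 difference over the members was 0.14, against 0.00 over all genes, and 87 of 129 were above 0. The libraries of the KNO3 levels did not overlap for 40 members that were higher and 17 that were lower, against 13.3% and 13.7% of all genes. CYP86A1 had 6076, 5547 and 6068 in long-term 60 mM mock roots, against 5379, 5206 and 4237 in long-term 6 mM mock roots. IRX12 had 2208, 2506 and 2585 at 60 mM, against 1693, 1839.9 and 1661 at 6 mM. For both, the 60 mM mock libraries were all above the 6 mM mock libraries. AT5G59680 went the other way, with 125, 108 and 78.6 in long-term 60 mM mock roots, against 299, 249 and 236 in long-term 6 mM mock roots. At 60 mM, shift against long-term mock roots gave a median of -0.13 over the members, with 98 below 0. The ranges stood apart for 4 members that were higher and 34 that were lower, against 10.8% and 11.0% of all genes.

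The counts of members on chromosomes 1 to 5 were 29, 25, 28, 15 and 32. The 129 comprised 128 protein-coding genes and the long noncoding RNA gene AT2G35945. Besides FAR4 and FAR5, the glycosyltransferase genes AT2G18560 and AT2G18570 on chromosome 2 were neighbours. In the annotation, 36 members overlap a gene on the opposite strand, and because the strand setting of the counting is not stated, reads of such partners cannot be told apart. Exon length had a median of 1672 bases in members and 1759 in all genes tested.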

How the data were processed

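RNA was measured in 24 root libraries in 8 groups of 3, grouped by their labels. Libraries of polyadenylated RNA were made for DNBSEQ sequencing, per the labels' protocols. The authors deposited raw counts per gene and a normalised signal, which equals the counts divided by 1 size factor per library. STAR 2.7.9a, DESeq2 1.32.0 and the build TAIR10 are named in the submitters' processing notes. The annotation, the strand setting of the counting and the handling of reads with several possible genes are not given in the sources used here. No entry lacked a gene name, and no column was left unmapped.

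Members were found from the deposited normalised counts. Tests used the deposited counts in R 4.3.3 with edgeR 4.0.16: filterByExpr (20546 genes kept), TMM, 1 robust quasi-likelihood fit of 8 group means with 16 residual degrees of freedom, and Benjamini-Hochberg adjustment over all genes tested. Fold changes used a prior count of 0.125, and SE was approximated from the fold change and the F statistic. Total counts were 18902538 to 20519913 a library, and the common biological coefficient of variation was 7.66%. Alternatives were DESeq2 1.42.0, other scalings, no filter, only the 6 libraries compared, a replicate block, a fold minimum, each library left out, and other limits of the rule. The fit was tested on simulated data.

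Symbols, overlaps and promoters came from RefSeq assembly TAIR10.1, read by gene identifier. It held all 129 members and gave a symbol to 63. A promoter window was searched for 128 members, as that of AT3G63540 runs past the chromosome end. Repeated 50-base windows were found with BLAST+ 2.17.0. Figures used matplotlib 3.10.9.

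The members, the gene lists and the tests were chosen with earlier results of these data known, and the roles were assigned after the members were seen. Named genes are members in a list, the 10 with the lowest ratio, the 5 with the highest mock mean, the 3 nearest to each limit on either side, for each test the 3 largest rises and falls among called members with ranges that do not overlap, families with 3 or more members, and the 5 outside genes of most similar profile. Members named beyond that rule illustrate the roles and were chosen after their values were seen.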

Additional observations from a re-analysis of the deposited data

Results flagged for a closer look

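In 2 members the libraries at 60 mM KNO3 lay to one side of those at 6 mM in shift mock roots and to the other side in long-term mock roots. In shift mock roots neither passed edgeR's quasi-likelihood test, with an adjusted p of 0.336 for AT1G05310 and 0.105 for PHO1;H1. The shift libraries of AT1G05310 were parted only by 239.6 against 240.0 normalised counts. AT1G05310, a pectin lyase-like gene, had 239.6, 238 and 195 normalised counts in shift 60 mM mock roots, against 240.0, 271 and 256 in shift 6 mM mock roots, a log2 fold change of -0.19. In long-term mock roots it had 300.5, 268 and 276 at 60 mM, against 255, 243 and 258 at 6 mM, a log2 fold change of 0.16. PHO1;H1 gave the other order. It had 1199.9, 1193 and 1065 in shift 60 mM mock roots, against 1049, 954 and 1054 in shift 6 mM mock roots, a log2 fold change of 0.18. In long-term mock roots it had 1002, 1021 and 1038 at 60 mM, against 1165, 1156 and 1119.9 at 6 mM, a log2 fold change of -0.17. The difference between shift and long-term roots was not tested for either gene. The fold changes are small, and the rule chose on the long-term 60 mM mock level. How many of all genes show such an opposite order was not counted, so nothing is read from the count of 2 members.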

How the results depend on the processing

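The number of members, 129, moved with the limits of the rule. It was 253 with a fall limit of -0.8 and 26 with -1.5, and 61 with a flat limit of 0.2 and 221 with 0.4. With 1 library left out it lay between 96 and 180, the extremes coming without long-term 60 mM isoxaben replicates 1 and 2. Other pseudocounts, level minimums, the median or TMM-scaled values gave 118 to 149. With the median of the 3 libraries in place of their mean, 132 genes met the rule, 79 of them members. The held-out median lay between -1.41 and -0.92. For KNO3 in shift mock roots, 16 members were called, 3 with a log2 fold change past 1 in size, 11 to 15 with 1 library left out, 17 with DESeq2 and 18 with library size alone. In shift isoxaben roots, 28 were called, 2 with that fold minimum and 17 to 23 with 1 library left out. For the shift at 6 mM, 1 was called, 0 with that fold minimum, 3 with DESeq2, 2 with only the libraries compared, and 0 to 1 with 1 library left out. With the replicate block the 3 counts were 16, 25 and 1, and of the named genes NPC4 lost its call. In the 3 comparisons tested, deviations of same-numbered libraries from their group means correlated between -0.12 and 0.09, so no pairing by number was seen there. The long-term 60 mM groups and the isoxaben to mock pairs were not checked in this way. No named gene changed direction in the alternatives run for it, and the directions of other members were not rerun. Depth and 3 libraries a group limit what low members can show: the lowest mock mean was 63.5 normalised counts.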

Other observations

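Of all genes outside the module, 5 followed the mean log2 profile of the members most closely over the 8 group means. These were ckl10 (AT3G23340, a casein kinase, Pearson's r 0.992), ABCI8 (0.990), AT2G40070 (0.989), AT4G33770 (0.988) and TLP1 (0.986). The 8 means come from the same 24 libraries as the members and hold a single low group. The genes missed the fall limit, with ratios of -0.77, -0.66, -0.38, -0.83 and -0.34 in long-term 60 mM roots. ckl10 was at 141 normalised counts in long-term 60 mM isoxaben roots and 241 in mock roots.

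Chromosome 4 held 11.6% of the members and 15.2% of the genes tested, and chromosome 2 held 19.4% and 15.2%. In the 300-base promoter windows the median GC content was 31.0% in members and 32.0% in all genes. Secondary wall list promoters held the MYB element in 16 of 24 cases.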
